A study of Homo sapiens with 12 samples.

Results

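ASNS, PCK2, GPT2, PYCR1, ALDH18A1, CTH, CBS and GOT1 are 8 human genes for enzymes that make non-essential amino acids or handle their carbon, and their RNA was measured in HT29 cells treated with a water extract of Aconitum carmichaeli Debeaux (ACD). The 8 genes were chosen by name, with their expression in these libraries already known, and each was matched by symbol to 1 of the 60675 Ensembl gene IDs of the deposited table. Their values over vehicle and the 3 doses are therefore given as a description, without p-values. They were part of the fit over all genes, and where that fit's thresholds are applied to them the count is a description too. Of the 8 genes, 7 passed the filter on low counts and were among the 15374 genes tested, and CBS did not.

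HT29 is an established line of human colorectal adenocarcinoma cells. The 12 RNA libraries fall into 4 groups of 3, all from cells kept for 24 h without (vehicle, PBS with 2% DMSO) or with the extract at a low dose of 20 µg/mL, at 100 µg/mL as the medium dose, or at 500 µg/mL as the high one, and the extract itself was dissolved in the same vehicle. A treatment note kept with the samples describes an extract of Poria cocos, whereas the titles and the treatment field name ACD, and the libraries were grouped by the titles. The sources used here do not say whether the replicates were separate cultures, so every p-value measures the spread between libraries only, which may be technical.

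The libraries held between 15941255 and 33866644 expected counts. High-dose replicate 2 had the lowest total and stood apart from the other high-dose libraries, with an SD of 0.496 for its log2 differences from their mean over 10618 genes, where the other 11 libraries had 0.102 to 0.283 against the others of their own groups. All 10 markers of colon epithelium had a mean over 1 CPM (counts scaled to the library size with TMM factors), and their summed level ranged from 11035 to 13004 CPM in vehicle and from 11220 to 13133 CPM at the high dose. The markers of fibroblasts, leukocytes and endothelium summed to at most 4.62 CPM per list in any library. Genes of the mitochondrial chromosome took 8.74% to 10.1% of the counts in vehicle and 14.0% to 16.6% at the high dose, and the part of this shift in the results was not tested beyond the refit with library sizes that leave those genes out.

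As background, asparagine, alanine, proline and aspartate are built in human cells from glutamate, glutamine, pyruvate and oxaloacetate, and cysteine is built from methionine through cystathionine. Several of these enzymes are known targets of the transcription factor ATF4, whose mRNA is translated more when the initiation factor eIF2 is phosphorylated, as in amino acid shortage or endoplasmic reticulum stress. ATF4 binds composite elements known as C/EBP-ATF response elements, one of which lies in the ASNS promoter.

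ASNS and GOT1 were the only ones of the described genes with a match to the core letters of this element in the promoter windows searched, so their promoters are shown. The windows were taken from RefSeq (GRCh38.p14) and reach from 250 bases before to 50 bases after an annotated transcription start. They were given for 6 of the 8 genes, in 9 windows, and not for GPT2 and PYCR1. The motif TGATGNAA was searched on both strands, and 3.62% of the 35116 windows in the RefSeq table held it. The match in ASNS (chr7:97872359-97872658, minus strand) begins 68 bases before the start and reads in the direction of the gene. The match in GOT1 (chr10:99430575-99430874, minus strand) begins 198 bases before the start and lies on the opposite strand. The sequences are written 5′ to 3′ along each gene, with the matched letters in capitals.
ASNS: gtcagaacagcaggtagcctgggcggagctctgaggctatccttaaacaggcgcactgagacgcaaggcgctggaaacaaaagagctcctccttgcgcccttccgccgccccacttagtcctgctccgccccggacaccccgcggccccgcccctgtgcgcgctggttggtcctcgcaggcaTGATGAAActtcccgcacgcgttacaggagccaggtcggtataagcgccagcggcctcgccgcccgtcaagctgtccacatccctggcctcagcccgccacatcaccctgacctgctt
GOT1: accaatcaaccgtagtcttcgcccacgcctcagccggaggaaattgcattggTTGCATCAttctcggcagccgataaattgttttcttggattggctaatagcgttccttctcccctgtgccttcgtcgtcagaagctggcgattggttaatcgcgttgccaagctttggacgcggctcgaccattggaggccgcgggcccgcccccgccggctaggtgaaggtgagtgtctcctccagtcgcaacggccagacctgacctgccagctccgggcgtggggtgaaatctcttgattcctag
The second ASNS window and the windows of PCK2, ALDH18A1, CTH and CBS held no match, which says only that these letters are not in these 300 bases.

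ASNS makes asparagine from aspartate, with glutamine as the donor of the amide group. The gene (ENSG00000070669) lies on chromosome 7 of GRCh38 from 97851677 to 97872542. Its levels were 55.5, 56.1 and 56.4 CPM in the vehicle libraries, 57.1, 55.1 and 62.8 CPM at the low dose, 63.7, 63.2 and 63.6 CPM at the medium dose, and 204, 299 and 205 CPM at the high dose. All high-dose libraries thus lay above every other library, and replicate 2 was the highest of them. The mean was 236 ± 54.7 CPM at the high dose and 56.0 ± 0.467 CPM in vehicle (SD, 3 libraries per group), and the fitted log2 fold change over vehicle (log2FC) was 2.08 (standard error, SE, 0.13), or 4.22-fold. The medium-dose libraries also lay above all vehicle libraries, but by a log2FC of only 0.18 (SE 0.13). The low-dose and vehicle libraries overlapped.

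PCK2 is the mitochondrial phosphoenolpyruvate carboxykinase, which turns oxaloacetate into phosphoenolpyruvate at the cost of GTP. The gene (ENSG00000100889) lies on chromosome 14 from 24094053 to 24110598. It measured 26.3, 23.7 and 23.3 CPM in vehicle, 22.7, 23.4 and 24.8 CPM at the low dose, 25.7, 24.5 and 28.1 CPM at the medium dose, and 48.1, 46.6 and 49.6 CPM at the high dose. The high-dose libraries lay close together and above all others, and the other 3 groups overlapped. The fitted log2FC at the high dose was 0.98 (SE 0.08), or 1.97-fold. PCK2 overlaps NRL on the opposite strand, which had 13 to 31.2 expected counts per library against 478 to 1614 for PCK2. The cytosolic form, PCK1, was below the filter on low counts, with at most 0.495 CPM in any library.

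GPT2, the mitochondrial alanine aminotransferase (ENSG00000166123, chromosome 16, 46884362 to 46931289), passes an amino group from glutamate to pyruvate. Its levels were 96.1, 95.3 and 95.6 CPM in vehicle, 99.2, 104.6 and 96.6 CPM at the low dose, 97.2, 94.3 and 97.7 CPM at the medium dose, and 161, 132 and 161 CPM at the high dose. The high-dose libraries lay above all others, with replicate 2 the lowest of them. The low-dose libraries also lay above the vehicle libraries, by a smallest gap from 96.1 to 96.6 CPM. The log2FC was 0.66 (SE 0.08) at the high dose and 0.07 (SE 0.08) at the low dose.

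Proline is made from glutamate by ALDH18A1, which performs the opening steps, and by PYCR1, which performs the last. PYCR1 (ENSG00000183010, chromosome 17, 81932384 to 81942412) measured 119, 113 and 110 CPM in vehicle, 106, 117 and 114 CPM at the low dose, 118, 111 and 118 CPM at the medium dose, and 152, 154 and 151 CPM at the high dose. Its high-dose libraries were close to each other (153 ± 1.37 CPM, SD, n = 3) and lay above all others, with a log2FC of 0.42 (SE 0.06). The expected counts of PYCR1 were not whole numbers in 6 libraries, so RSEM divided a part of its reads between genes. ALDH18A1 (ENSG00000059573, chromosome 10, 95605941 to 95656711) measured 179.5, 186 and 183 CPM in vehicle, 193, 206 and 208 CPM at the low dose, 204, 207 and 207 CPM at the medium dose, and 197, 198 and 193 CPM at the high dose. All 9 treated libraries lay above the vehicle libraries, but the order of the groups did not follow the dose. Its log2FCs were 0.15, 0.17 and 0.10 at the low, medium and high dose (SE 0.06 each), which is at most 1.13-fold. PYCR1 was thus higher at the high dose only, and ALDH18A1 was slightly higher at every dose, but the difference between both patterns was not tested.

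CTH, the cystathionine gamma-lyase that releases cysteine (ENSG00000116761, chromosome 1, 70411218 to 70439851), was the lowest of the tested members, with 61 to 211 counts per library. It measured 3.35, 3.45 and 4.00 CPM in vehicle, 3.67, 3.56 and 3.18 CPM at the low dose, 3.95, 3.72 and 3.19 CPM at the medium dose, and 5.71, 7.57 and 6.48 CPM at the high dose. The high-dose libraries lay above all others, and the remaining groups overlapped. The log2FC at the high dose was 0.86 (SE 0.13).

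CBS makes the cystathionine that CTH cleaves. The gene (ENSG00000160200, chromosome 21, 43053191 to 43076943) had 1 expected count in vehicle replicate 1, 1 in high-dose replicate 3, and 0 in the other 10 libraries. In those 10 libraries a count of 0 allows a level of up to 0.0908 to 0.212 CPM, depending on the library (3 counts, counting error only), so the levels of CBS in the 4 groups could not be told apart. GENCODE release 44 marks another gene ID on the same chromosome, ENSG00000274276 (6444869 to 6467513), as an artifactual duplicate of CBS. That ID held 0 counts in every library, so the sum of both copies was also 0 or 1. For comparison, U2AF1, which has such a duplicate too, held 1141 to 2567 expected counts, and its duplicate held 309 to 757. Whether reads of CBS were lost in alignment or counting was not tested.

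GOT1, the cytosolic aspartate aminotransferase (ENSG00000120053, chromosome 10, 99396870 to 99430624), moves amino groups between glutamate and oxaloacetate. It measured 54.2, 51.0 and 53.6 CPM in vehicle, 50.9, 50.8 and 57.4 CPM at the low dose, 46.6, 50.4 and 50.8 CPM at the medium dose, and 55.4, 77.1 and 55.2 CPM at the high dose. Only high-dose replicate 2 stood out, while the other high-dose libraries exceeded the highest vehicle library by about 1 CPM. The log2FC was 0.24 (SE 0.12) with all libraries and 0.07 (SE 0.07) without that library.

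**Figure D1:**
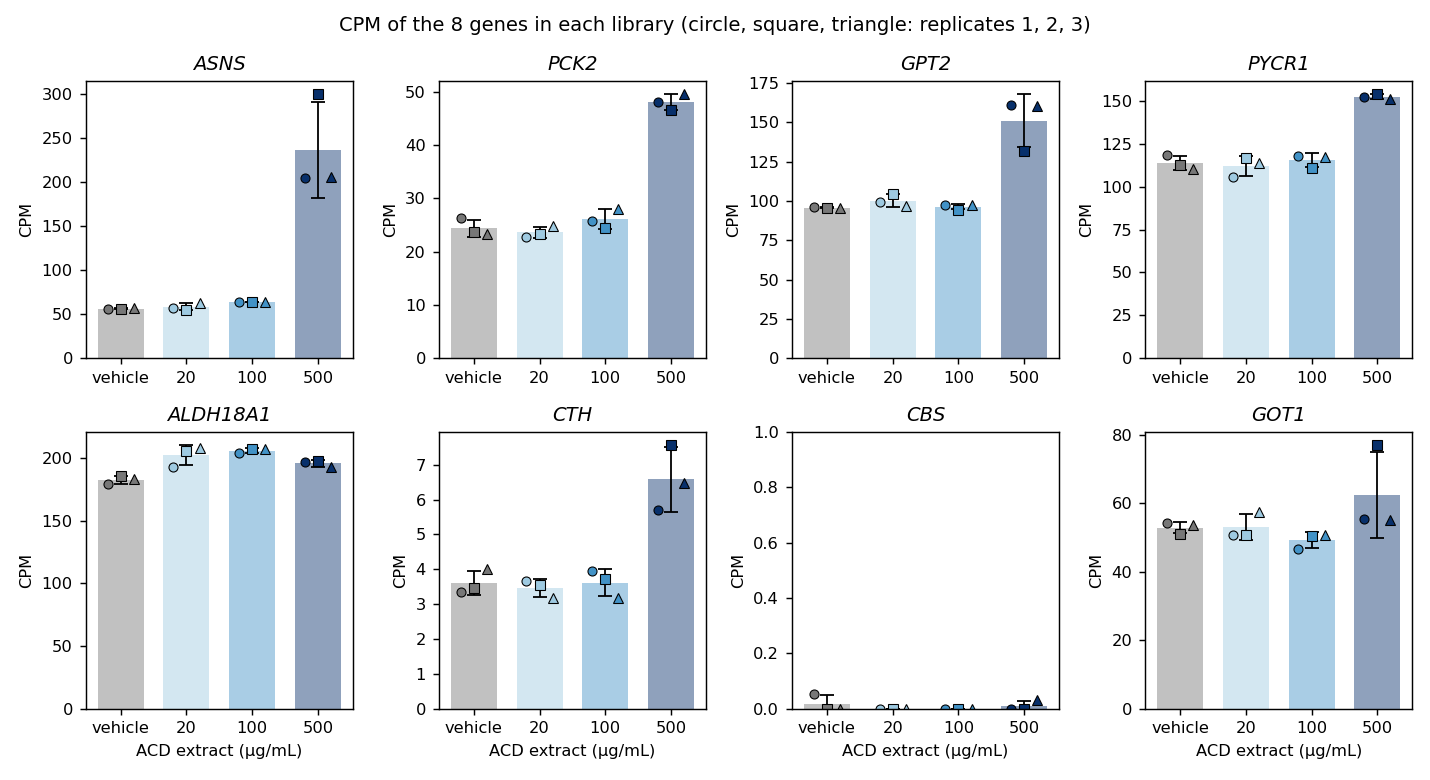
CPM of each gene (y axis, 1 panel per gene, each with its own scale from 0) against the dose of ACD extract (x axis, µg/mL). Bars are means of 3 libraries, error bars are SDs, and circles, squares and triangles are replicates 1, 2 and 3. In ASNS, PCK2, GPT2, PYCR1 and CTH the 500 µg/mL libraries sit above all others, and CBS holds at most 1 count per library.

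Across the 7 tested genes, all high-dose libraries lay above all vehicle libraries in 7 genes, where 10.5% of the 15374 tested genes did so. At the low and the medium dose this held for 2 genes each (11.4% and 14.6% of all tested genes). Only GOT1 at the medium dose lay wholly below vehicle, as did 14.1% of all tested genes there, 9.61% at the low dose and 11.5% at the high dose. The study used DESeq2's Wald test, with a fold change above 1.5 together with an adjusted p below 0.05. Here the same thresholds were applied to edgeR's quasi-likelihood fit, so the calls are not those of the study. By them ASNS, PCK2, GPT2 and CTH were differentially expressed genes (DEGs) at the high dose, that is 4 of the 7. Of all tested genes, 1.26% were upregulated DEGs and 1.68% downregulated ones. At the medium and low doses 0 of the 7 were DEGs, where 0.384% and 0.065% of all tested genes were upregulated DEGs and 0.293% and 0.0455% downregulated ones. These counts describe genes that were chosen on the same libraries, and nothing is read from them. The median log2FC of the 7 genes was 0.66, 0.02 and 0.00 at the high, medium and low dose, and that of all tested genes lay between −0.01 and 0.01 at each dose. The doses share the vehicle libraries. CTH was not a DEG when the vehicle and high-dose libraries were fitted alone.

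**Figure D2:**
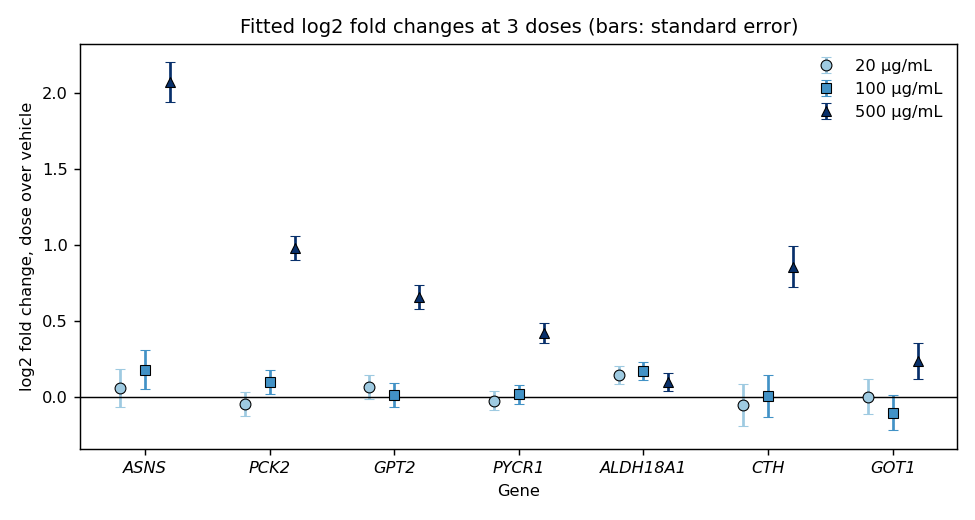
Log2FC over vehicle (y axis) of the 7 tested genes (x axis) at 20, 100 and 500 µg/mL, with SEs as bars. At 500 µg/mL the values run from 0.10 for ALDH18A1 to 2.08 for ASNS, whereas at 20 and 100 µg/mL they stay between −0.10 and 0.18.

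The genes also differed in their levels. Per kilobase of exon (union of GENCODE exons), the vehicle means in CPM per kb were 48.6 for ALDH18A1, 39.5 for PYCR1, 21.8 for GOT1, 15.0 for GPT2, 11.4 for ASNS, 5.85 for PCK2 and 1.49 for CTH. At the high dose ASNS reached 48.3 CPM per kb, near PYCR1 at 52.8 and ALDH18A1 at 52.1 CPM per kb, and so passed GPT2 (23.7) and GOT1 (25.8). PCK2 reached 11.5 CPM per kb and CTH 2.73 CPM per kb, and both kept their places at the end of the order.

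Among the high-dose libraries, replicate 2 differed from replicates 1 and 3 in several of the 7 genes. In high-dose replicate 2, ASNS was 46.3% higher than the mean of replicates 1 and 3, GOT1 was 39.4% higher and CTH was 24.1% higher. In the same library GPT2 was 18.1% lower and PCK2 4.57% lower, whereas PYCR1 was 1.46% and ALDH18A1 1.55% higher. This library was therefore neither uniformly high nor uniformly low for these genes. Set against the vehicle mean, ASNS stood at 3.65, 5.35 and 3.67 times that level in replicates 1, 2 and 3, and GPT2 at 1.68, 1.38 and 1.68 times. Without replicate 2 the log2FC of ASNS was 1.87 (SE 0.06) and that of GPT2 was 0.75 (SE 0.05), so the size of the difference in ASNS depended in part on this library and its direction did not.

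**Figure D3:**
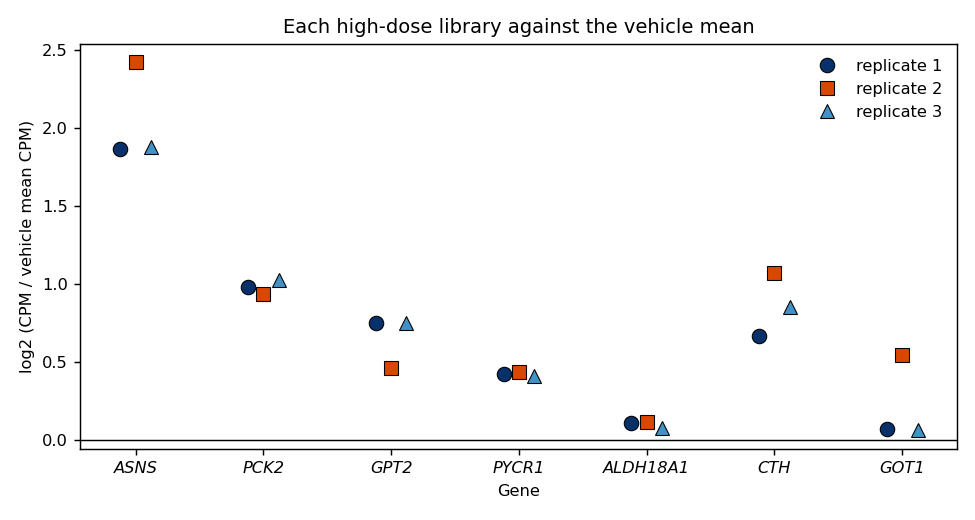
Log2 ratio of each high-dose library to the vehicle mean (y axis) for the 7 tested genes (x axis), with replicates 1, 2 and 3 as circles, squares and triangles. Replicate 2 sits above the others for ASNS, CTH and GOT1 and below them for GPT2.

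The patterns over the 12 libraries were compared by the root mean square difference of log2 CPM, each gene set against its own vehicle mean. This is a description over libraries that share their groups and depths. Among the members, GPT2 and PYCR1 were the closest pair, with a difference of 0.15, and ASNS and ALDH18A1 were the farthest apart, with 0.98. Among the 10615 other genes with a mean of at least 5 CPM, TRIB3 was the most like PCK2 (0.08), followed by IFRD1 (0.14), and DDIT4 was the most like ASNS (0.19), followed by PSAT1 (0.32). The most similar genes were VEGFA and GRB10 for GPT2 (0.10 each), HERPUD1 and ASMTL for PYCR1 (0.08 each), SARS1 and MTHFD2 for CTH (0.13 and 0.14), RUVBL1 and TOR3A for GOT1 (0.05 each), and PALS1 and ELAC2 for ALDH18A1 (0.03 and 0.04).

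Other genes of the same routes, and genes around ATF4 and of serine and one-carbon metabolism, were tested with edgeR's quasi-likelihood test. The p-values were adjusted over all 15374 genes by the Benjamini–Hochberg method. The lists were chosen with earlier results of these data known. The 7 lists held 90 genes, of which 70 were tested. At the high dose 9 of these 70 (12.9%) were upregulated DEGs and 0 were downregulated DEGs, against 2.93% of all tested genes in either direction. Of the 9, 4 were among the 10 genes around ATF4 and 3 among the 8 of serine and one-carbon metabolism. The asparagine and oxaloacetate lists held 1 each (7 and 10 tested). The proline, alanine and methionine lists held 0 each (10, 13 and 12 tested). With no minimum fold change, 16 of the 70 were higher and 2 lower at the high dose, where 5.77% of all tested genes passed. ME1 alone passed at the medium dose (1.01% of all tested genes), whereas 0 passed at the low dose (0.124%). DESeq2 called 10 at the high dose, the additional gene being SHMT2. The median log2FC of the 70 genes was 0.13, against 0.01 for all genes. At the medium and low doses edgeR called 0 of the 70 and so did DESeq2, while 0.676% and 0.111% of all tested genes were DEGs. Unadjusted p-values under 0.05 were found for 33 of the 70 genes at the high dose, 7 at the medium and 4 at the low dose, against 20.1%, 11.7% and 7.95% of all tested genes.

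GOT2, GPT and PYCR3, which carry out the same reactions as members, were not DEGs at any dose. GOT2, the mitochondrial aspartate aminotransferase, had a log2FC of 0.15 (SE 0.07, adjusted p 0.244, edgeR) at the high dose, with 200 ± 9.14 CPM in vehicle and 222 ± 14.7 CPM at the high dose (SD, 3 libraries each). GPT, the cytosolic alanine aminotransferase, was at 4.51, 4.27 and 4.74 CPM in vehicle and at 6.12, 8.70 and 5.71 CPM at the high dose. Its log2FC of 0.58 (SE 0.14, adjusted p 0.0362, edgeR) passed the p threshold, but its fold change of 1.49 did not pass the fold threshold. Leaving out high-dose replicate 1 or 3 made GPT a DEG (log2FC 0.64 and 0.70), and leaving out replicate 2 gave 0.39. Its adjusted p ranged from 0.0127 to 0.238 over the 19 alternatives. PYCR3, which carries out the same step as PYCR1, had a log2FC of −0.10 (adjusted p 0.622, edgeR). Whether PYCR1 differed from PYCR3 in its response was not tested.

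In the asparagine and aspartate list 1 of 7 tested genes was a DEG. An unadjusted p under 0.05 was found for 5 of the 7 at the high dose, against 20.1% of all tested genes. ASS1, which joins citrulline and aspartate in the synthesis of arginine, was at 15.3, 12.8 and 14.2 CPM in vehicle and rose to 28.3, 35.9 and 29.6 CPM at the high dose, with all high-dose libraries above all others. The log2FC was 1.15 (SE 0.12, adjusted p 1.61e-04, edgeR). ASRGL1, an enzyme that splits asparagine, had a log2FC of −0.38 (adjusted p 0.0241, edgeR), below the fold threshold. SLC25A13, a mitochondrial carrier of aspartate and glutamate, had a log2FC of −0.12 (adjusted p 0.417).

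In the proline, ornithine and arginine list 0 of 10 tested genes were DEGs. At the high dose 3 had an unadjusted p under 0.05, against 20.1% of all tested genes. ODC1, which makes putrescine from ornithine, had a log2FC of 0.08 (adjusted p 0.715, edgeR). In the alanine and glutamate list 0 of 13 tested genes were DEGs, and 6 had an unadjusted p under 0.05, against the same 20.1%. GLUL, the glutamine synthetase, had 164 ± 6.21 CPM in vehicle and 134 ± 7.00 CPM at the high dose (SD, 3 libraries each), a log2FC of −0.29 (adjusted p 0.0184, edgeR) that did not reach the fold threshold. GLUD1, the glutamate dehydrogenase, had a log2FC of 0.23 (adjusted p 0.135).

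In the list around oxaloacetate, phosphoenolpyruvate and gluconeogenesis 1 of 10 tested genes was a DEG. An unadjusted p under 0.05 was found for 2 of the 10 at the high dose, against 20.1% of all tested genes. ME1, the cytosolic malic enzyme, which makes NADPH and pyruvate from malate, rose from 82.0, 80.5 and 83.3 CPM in vehicle to 133, 147 and 127 CPM at the high dose, a log2FC of 0.73 (SE 0.07, adjusted p 4.35e-05, edgeR). ME1 also stood at 104, 103 and 105 CPM at the medium dose, a log2FC of 0.34 (adjusted p 0.0272), which passed the p threshold only. PKM and MDH2, a pyruvate kinase and the mitochondrial malate dehydrogenase, had a log2FC of 0.09 each (adjusted p 0.580 and 0.656). In the methionine, transsulfuration and sulfide list 0 of 12 tested genes were DEGs, and 5 had an unadjusted p under 0.05, against the same 20.1%. MTRR, which keeps methionine synthase active, had a log2FC of 0.33 (adjusted p 0.00587) and AHCYL1 one of 0.28 (adjusted p 0.0300), both under the fold threshold. MAT2A, which makes S-adenosylmethionine, had a log2FC of 0.29 (adjusted p 0.0506), and AHCY, which cleaves S-adenosylhomocysteine, one of 0.13 (adjusted p 0.463).

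ATF4 and genes around it were examined because several members are known targets of ATF4. This list too was chosen with earlier results of these data known, so its counts and p-values are not independent of that choice. Of 10 genes, 4 were upregulated DEGs at the high dose, against 1.26% of all tested genes. ATF4 was at 271, 243 and 237 CPM in vehicle and at 358, 421 and 348 CPM at the high dose, a log2FC of 0.59 (SE 0.08, adjusted p 0.00146, edgeR). This lay at the fold threshold, and ATF4 was a DEG under 12 of 19 alternatives. Leaving out high-dose replicate 2 (log2FC 0.50), vehicle replicate 2 (0.57) or vehicle replicate 3 (0.56) ended its call through the fold change. In the fit of the vehicle and high-dose libraries alone it passed neither threshold (log2FC 0.58, adjusted p 0.0749, edgeR). TRIB3, a pseudokinase induced by ATF4, rose from 44.3, 42.5 and 41.3 CPM to 93.2, 86.9 and 89.6 CPM, a log2FC of 1.07 (SE 0.07, adjusted p 4.21e-06). ATF3, a stress-induced transcription factor, had a log2FC of 1.45 (adjusted p 1.06e-04) and DDIT3, also known as CHOP, one of 0.75 (adjusted p 0.00372). CEBPG, a C/EBP family protein that can pair with ATF4, had a log2FC of 0.52 (adjusted p 0.00385), under the fold threshold. The eIF2 kinases EIF2AK1 and EIF2AK2 had log2FC values of 0.06 and −0.24 (adjusted p 0.666 and 0.306). RNA levels do not show the activity of a kinase or the translation of ATF4.

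Of the 8 genes of serine synthesis and one-carbon metabolism, 3 were upregulated DEGs at the high dose, against 1.26% of all tested genes. The choice of this list was likewise not independent of these data. PSAT1, the aminotransferase of serine synthesis, rose from 99.5, 97.0 and 103 CPM in vehicle to 253, 301 and 261 CPM at the high dose, a log2FC of 1.44 (SE 0.08, adjusted p 8.52e-07, edgeR). PHGDH, the enzyme that starts serine synthesis, had a log2FC of 0.96 (adjusted p 0.00125), and MTHFD2, a mitochondrial folate enzyme, one of 0.78 (adjusted p 0.00179). SHMT2, a mitochondrial serine hydroxymethyltransferase, had a log2FC of 0.58 (adjusted p 3.75e-04) at the edge of the fold threshold and was a DEG under 10 of the 19 alternatives, and SHMT1, the cytosolic form, had one of −0.13 (adjusted p 0.311). MTHFD1L, a mitochondrial folate enzyme, and PSPH, the phosphatase that ends serine synthesis, had log2FC values of 0.49 and 0.55 (adjusted p 0.00101 and 0.0414), also under the fold threshold. PSPH measured 49.7, 81.2 and 56.3 CPM at the high dose and 40.6 to 45.4 CPM in vehicle, so high-dose replicate 2 stood apart. DDIT3 and MTHFD2 were not DEGs when the vehicle and high-dose libraries were fitted alone (adjusted p 0.0722 and 0.0712, edgeR).

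**Figure D4:**
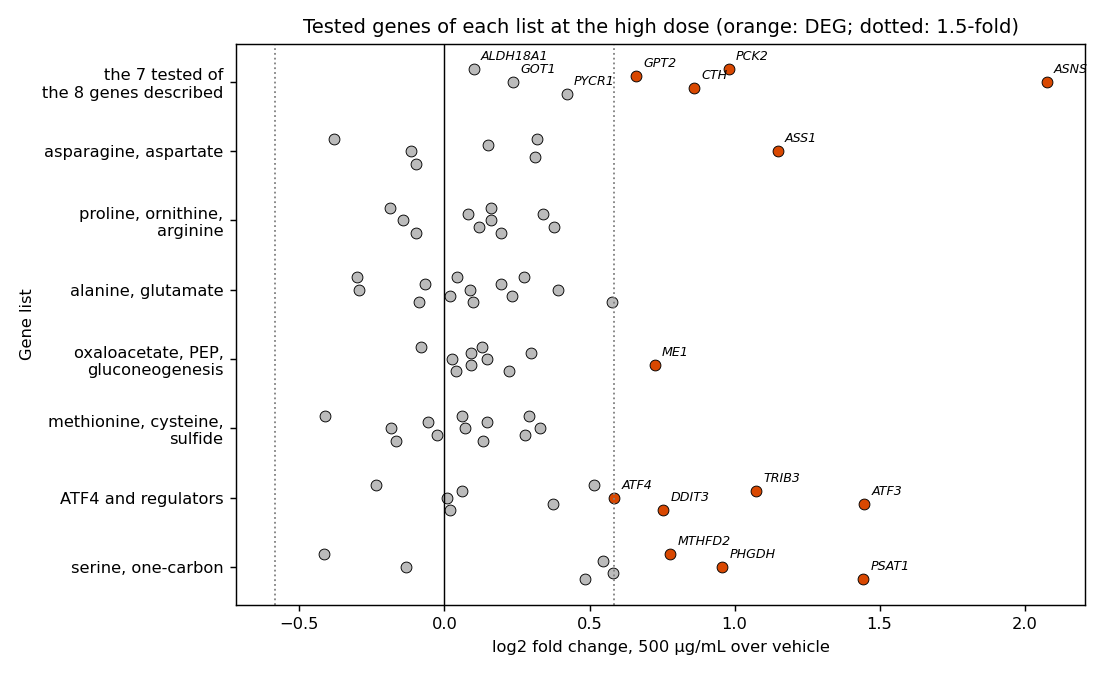
Log2 fold change at 500 µg/mL over vehicle (x axis) of every tested gene in each list (y axis, 1 row per list, points spread for visibility). Orange points are DEGs, and dotted lines mark a fold change of 1.5. The DEGs outside the top row are ASS1, ME1, ATF3, ATF4, DDIT3, TRIB3, MTHFD2, PHGDH and PSAT1, all on the higher side.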

How the data were processed

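RNA of 12 HT29 libraries was sequenced with 100 bp paired-end reads from a directional kit. Reads were trimmed (Trim Galore) and aligned to GRCh38 (STAR) by the authors, who deposited expected counts per Ensembl gene, estimated with RSEM 1.3.3 and not normalized. The versions given for Trim Galore and STAR differ between the sources, and the strand setting of RSEM is not given in the sources used here. Gene symbols and coordinates came from GENCODE release 44 (GRCh38), which held 93.2% of the deposited IDs.

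Expected counts were rounded to whole numbers, filtered with filterByExpr, scaled by TMM and fitted for all 12 libraries and 4 groups in edgeR 4.0.16 under R 4.3.3, with its quasi-likelihood test. Standard errors came from the F statistic. DEGs passed a fold change of 1.5 and had a Benjamini–Hochberg adjusted p below 0.05. Log2 CPM used a prior count of 2. DESeq2 1.42.0 was an alternative. The scripts were tested on simulated data.

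The members, the lists and the tests were chosen with earlier results of these data known. Named are all members, the enzymes of the same reactions, ATF4, every DEG of a list, the 2 best expressed genes of each list that were not DEGs, and 2 genes with the most similar pattern per member. ASRGL1, MTRR, AHCYL1, CEBPG, MTHFD1L and PSPH, which passed the adjusted p and not the fold change, were named after their values were seen, and 1 gene that the rule names is not reported here. Alternatives were DESeq2, vehicle and 1 dose fitted alone, DESeq2's size factors, no filter, at least 10 counts in every library, the replicate number as a block, no minimum fold change, library sizes without chromosome M, and each library left out.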

Additional observations from a re-analysis of the deposited data

How the results depend on the processing

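With no minimum fold change, 18 of the 70 tested pathway genes passed at the high dose and 1 at the medium dose. Under the other alternatives the count at the high dose was between 6 (vehicle and high dose fitted alone) and 12, with a range of 8 to 12 when 1 library was left out, and it was 0 at the medium and low doses. The number of members called at the high dose was between 3 and 5. Of the refitted log2FC values of members, 3 moved by more than the spread between replicates, all at the medium dose. No called value changed sign. The sum of CBS and its duplicate copy gave no testable value.

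The replicate number showed no consistent pairing of the libraries, but 3 libraries per group cannot exclude one. Deviations from the group means of same-numbered vehicle and treated libraries correlated between −0.49 and 0.37 over 10618 genes. With the number as a block, 8 pathway genes and 4 members were called at the high dose, and ATF4 was not (log2FC 0.58). Among the tested members, counts per gene limit CTH most (61 to 211 per library). CBS, with 0 or 1 expected counts per library, could not be assessed, and the reason for its low counts was not tested.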
